A study of Mus musculus with 6 samples.

Results

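The genes described here are 9 members of the Notch pathway in cells of the mouse pancreatic acinar tumour line 266.6: the receptor genes Notch1, Notch2 and Notch3, the ligand genes Jag1 and Jag2, the target genes Hes1 and Hey1, and the Deltex genes Dtx3 and Dtx4. They were taken by symbol from the deposited table, in which all 9 were found among 20596 rows that carry a gene symbol, and all 9 passed the filter on low values. Total RNA of 6 libraries was sequenced. The CAF_CM group, 3 libraries, was exposed for up to 40 days to medium conditioned by cancer-associated fibroblasts, and the control group held 3 libraries of the same line. Both groups were grown in DMEM with 10% serum. How long the controls were kept is not recorded, so exposure and culture time cannot be told apart. The line is a single tumour line, derived from a pancreatic tumour of a mouse that carried the SV40 T antigen under an elastase promoter, and the fibroblasts behind the medium are not described further in the labels of these libraries.

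Notch signalling passes between touching cells. A Jagged or Delta-like ligand on the surface of a neighbour binds a Notch receptor, which is then cut by the protease ADAM10 and by gamma-secretase, and the freed intracellular part enters the nucleus, where it joins the DNA-binding protein RBPJ and a Mastermind co-activator to switch on Hes and Hey genes. Deltex proteins are ubiquitin ligases, some of which act on the traffic of Notch receptors. In the embryonic pancreas Notch and Hes1 hold progenitors back from differentiation. In the adult organ the pathway is mostly quiet in acinar cells and is known to return during acinar-to-ductal metaplasia, and mature acinar cells use RBPJL, a relative of RBPJ that does not bind Notch, in their transcription complex PTF1.

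The libraries held between 18622370 and 21002226 reads. The biological coefficient of variation, a measure of the spread beyond counting, was 2.20% among control and 8.23% among CAF_CM libraries. Whether each replicate was its own culture is not stated, and p-values then reflect only library-to-library spread, possibly technical. Acinar markers were present (all 10 of the list in the table, summed level 69581 to 72071 normalized counts in control and 38996 to 45636 in CAF_CM libraries), with Rbpjl, Cela1, Ctrb1 and Cel called lower and Nr5a2 higher. Most of the sum came from Ctrb1, with means of 45083 in control and 23668 in CAF_CM libraries. Cel rested on 9 to 30 reads per library (limma adjusted p = 0.0498). The other acinar markers were not called: Ptf1a, Bhlha15, Cpa1 and Prss2 had positive log2 differences (0.15, 0.14, 0.12 and 0.31). Pnlip, at 5 to 14 reads, had a negative one (-0.16). Of the ductal markers, Krt19 had no row under that symbol and the other 7 summed to 668 to 723 in control and 789 to 956 in CAF_CM libraries, with Sox9 and Spp1 called higher. Fibroblast markers summed to 3515 to 3710.4 in control and 3165 to 3649 in CAF_CM libraries, most of it from Pdgfrb, while Col3a1, Lum and Fap had no row under those symbols, Postn stayed at 11.2 or less, Col1a2 rose and Dcn fell. Markers of endothelium, a usual source of Notch ligands in tissue, summed to 197 to 226 in control and 158 to 191 in CAF_CM libraries, most of it from Tek, while Pecam1 had 9.63 to 13.3 in control and 16.1 to 18.6 in CAF_CM libraries and Cdh5, Vwf, Cldn5 and Emcn had no row under those symbols. Immune markers summed to 107 or less, with Ptprc at 3.85 or less in each library. Islet markers (31041 to 31446 in control and 22201 to 24079 in CAF_CM libraries) came almost wholly from Chga, which fell, while Ins1, Ins2, Sst and Iapp had no row under those symbols. The part of these markers in the results on Notch genes was not tested. In a bulk library, fewer cells that make a transcript and less of it per cell cannot be told apart.

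Of the 9 members, 3 were called higher in CAF_CM libraries (Jag1, Notch3 and Dtx4) and 1 lower (Dtx3) by limma with a threshold of 0.05 on the adjusted p. Over all 16169 genes tested, 34.4% were called, 18.3% higher and 16.1% lower, so 4 of 9 is close to the share of the whole table. The median log2 difference of the members was 0.12, beside 0.0046 over all genes tested. All genes together gave 2953 higher and 2602 lower calls, a split that became 2231 higher and 3179 lower with library totals as the only scaling. Per-library values of the members are given below as normalized counts, means are ± SD with n = 3 per group, and log2 differences are CAF_CM minus control on the log2(value + 1) scale.

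**Figure D1:**
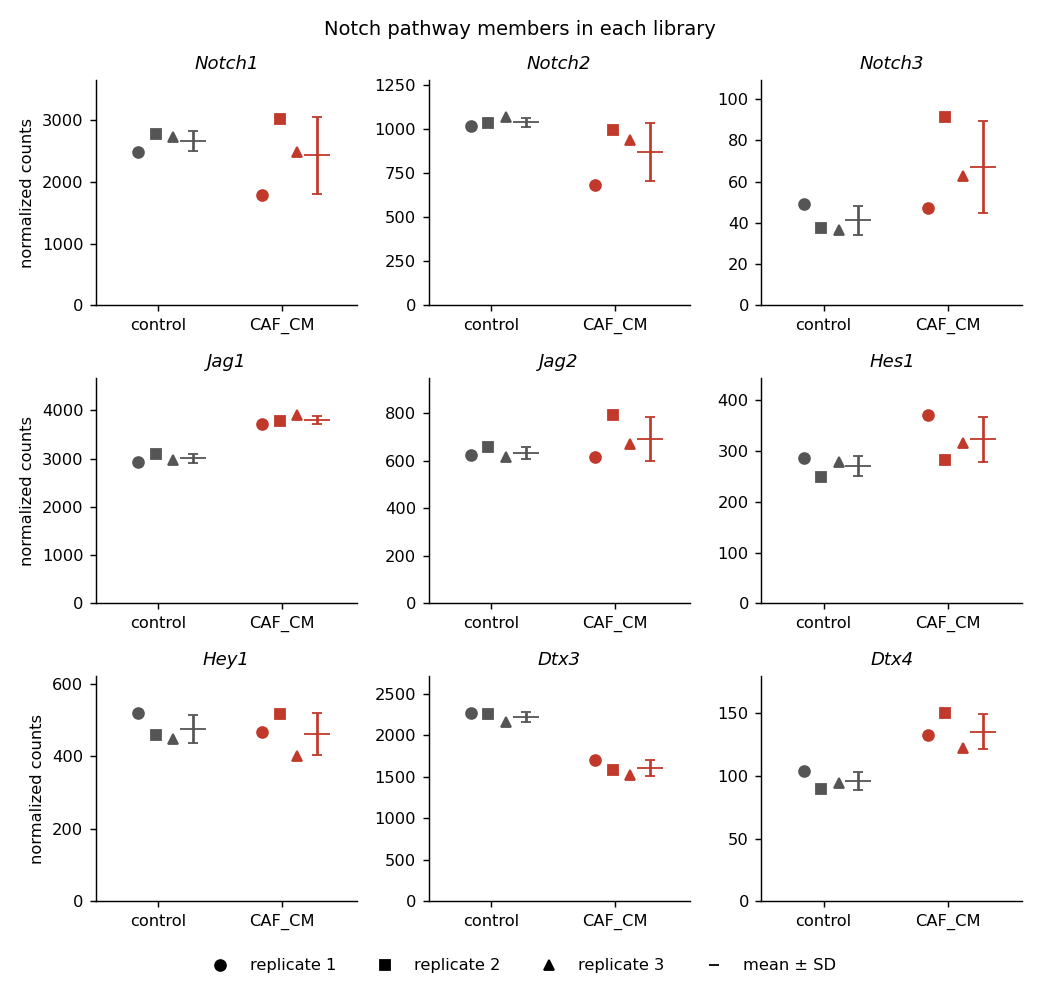
Normalized counts (vertical axes, from 0) of the 9 members in the 3 control libraries (grey) and the 3 CAF_CM libraries (red), with the replicate number as marker shape and the group mean ± SD beside the points. Jag1 and Dtx4 lie higher and Dtx3 and Notch2 lower in all CAF_CM libraries, and Notch1 spreads from 1782 to 3009.5 within the CAF_CM group.

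Jag1, the Jagged ligand best known from the developing bile ducts and pancreas, rose. Its control libraries held 2935, 3098 and 2968 normalized counts, and its CAF_CM libraries 3723, 3767 and 3894. The groups did not overlap, and the CAF_CM libraries lay closer together than for most genes: only 6.86% of the genes tested had a smaller SD of log2 values in that group. That comparison took in tested genes of every level and was not matched for level. The means were 3001 ± 86.3 and 3795 ± 89.0, a 1.26-fold rise (log2 difference 0.34, SE 0.047, 95% interval 0.24 to 0.44, limma adjusted p = 0.000335). The other Jagged gene of the set, Jag2, did not pass the test. Its values were 624, 660.1 and 615 normalized counts in control and 615, 792 and 671 in CAF_CM libraries, with replicate 2 above all controls and replicate 1 just below their lowest (log2 difference 0.12, 95% interval -0.068 to 0.31, limma adjusted p = 0.305). Without CAF_CM replicate 1, Jag2 was called higher (0.20, adjusted p = 0.0409).

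Among the receptor genes, Notch1 had 2476, 2773 and 2722 normalized counts in control libraries and 1782, 3009.5 and 2471 in CAF_CM libraries. The groups overlapped, with CAF_CM replicate 2 above and replicates 1 and 3 below all controls. The SD of the CAF_CM libraries (615 around a mean of 2421, against 159 around 2657 in control) was on the log2 scale larger than that of 91.1% of the genes tested. The log2 difference was -0.17 (SE 0.14, 95% interval -0.47 to 0.14, limma adjusted p = 0.397). It was -0.34 without CAF_CM replicate 2 (adjusted p = 0.0261) and 0.039 without CAF_CM replicate 1 (adjusted p = 0.694), so its sign rested on CAF_CM replicate 1.

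Notch2, the other receptor expressed at a high level here, had 1018, 1035 and 1069 normalized counts in control libraries. The CAF_CM libraries held 686, 995 and 938, all below the lowest control, with replicate 1 far below the other two. The means were 1041 ± 25.7 and 873 ± 165 (log2 difference -0.27, SE 0.11, 95% interval -0.52 to -0.027, limma adjusted p = 0.0805), which missed the threshold. Of the 9 members, 2 had all CAF_CM libraries above (Jag1, Dtx4) and 2 below the controls (Notch2, Dtx3). Such separation is common in this table, at 47.7% of all genes tested, 24.8% with CAF_CM higher and 22.9% lower. Notch2 was called lower without CAF_CM replicate 2 (-0.38, adjusted p = 0.0135) and when each group was given its own variance weight (-0.27, adjusted p = 0.0292).

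Notch3, a receptor gene typical of smooth muscle and pericytes, was the least expressed member and was called higher. Control libraries had 49.1, 37.7 and 36.6 normalized counts, and CAF_CM libraries 47.4, 91.1 and 62.6, from 35 to 93 reads per library. CAF_CM replicate 1 lay within the control range and replicate 2 was the highest. The means of 41.2 ± 6.91 and 67.0 ± 22.2 gave a 1.57-fold rise (log2 difference 0.65, SE 0.23, 95% interval 0.15 to 1.15, limma adjusted p = 0.0465). The call was lost without any 1 of control replicates 1, 2 and 3 (adjusted p = 0.0553, 0.134 and 0.141) or CAF_CM replicates 2 and 3 (log2 difference 0.41 with adjusted p = 0.143, and 0.67 with adjusted p = 0.0973), whereas without CAF_CM replicate 1 the log2 difference was 0.87 (adjusted p = 0.00511). It was also lost with TMM scaling (adjusted p = 0.05003), library totals (0.0654) and limma-voom (0.0625). The remaining receptor gene, Notch4, known from endothelium, stood at 25.8 ± 2.46 in control and 19.4 ± 2.88 in CAF_CM libraries (log2 difference -0.40, adjusted p = 0.189). In GENCODE, exons of Notch1 share 7.504% of their bases with the antisense gene 0610009E02Rik, and those of Notch3 6.03% with the antisense gene Gm17276, and the strand used in counting is not stated, so reads there cannot be told apart. Exons of Notch2 share 5.02% of their bases with Gm42820 on the same strand, where reads cannot be told apart either.

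Neither target gene passed the test. Hes1, which encodes the repressor most closely tied to Notch in pancreatic progenitors, had 287, 249 and 278 normalized counts in control libraries and 371, 282 and 317 in CAF_CM libraries. Replicates 1 and 3 of CAF_CM were above every control and replicate 2 fell inside the control range (means 271 ± 20.0 and 323 ± 44.6, log2 difference 0.24, 95% interval 0.012 to 0.48, limma adjusted p = 0.0961). Without CAF_CM replicate 2, Hes1 was called higher (0.34, adjusted p = 0.0177). The order of the CAF_CM libraries was the reverse of that of Notch1, since Hes1 was highest in replicate 1, where Notch1 was lowest, and lowest in replicate 2, where Notch1 was highest. Short and long genes differed in this way across the table: of 4649 genes under 2 kb, Hes1 among them, 53.3% were highest in replicate 1 and 46.1% lowest in replicate 2. Over all genes tested these shares were 37.3% and 35.9%. Hey1, a related repressor, had 518, 459 and 447 normalized counts in control and 465, 515 and 401 in CAF_CM libraries, overlapping throughout (log2 difference -0.049, 95% interval -0.26 to 0.16, limma adjusted p = 0.732). The sign of Hey1 turned without control replicate 1 (0.016) and without CAF_CM replicate 3 (0.047).

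The Deltex genes moved apart. Dtx3 had 2267, 2255 and 2158 normalized counts in control libraries and 1709, 1584 and 1528 in CAF_CM libraries, without overlap. Its means of 2227 ± 59.6 and 1607 ± 92.8 gave a 1.39-fold fall (log2 difference -0.47, SE 0.055, 95% interval -0.59 to -0.35, limma adjusted p = 0.000135). Dtx4, which encodes a Deltex protein shown to ubiquitinate Notch1, had 104, 89.8 and 94.2 normalized counts in control and 133, 149.8 and 122 in CAF_CM libraries, again without overlap. The means rose 1.40-fold from 96.0 ± 7.29 to 135 ± 13.8 (log2 difference 0.49, SE 0.12, 95% interval 0.22 to 0.75, limma adjusted p = 0.0104). Dtx4 missed the threshold without control replicate 2 (0.44, adjusted p = 0.0503). Within a library, the count of Dtx3 over that of Dtx4, uncorrected for length, was 21.8, 25.1 and 22.9 in control and 12.9, 10.6 and 12.5 in CAF_CM libraries. The other Deltex genes did not pass the test. Dtx1 had a log2 difference of 0.088 (adjusted p = 0.183), Dtx2 of -0.12 (adjusted p = 0.116, and 0.0499 without CAF_CM replicate 1) and Dtx3l of -0.060 (adjusted p = 0.540).

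Levels of different genes were compared as normalized counts per kilobase of the longest GENCODE transcript. In control libraries the order was Dtx3 (1117 ± 29.9), Jag1 (535 ± 15.4), Notch1 (280.1 ± 16.7), Hey1 (196 ± 15.7), Hes1 (185 ± 13.6), Jag2 (124 ± 4.63), Notch2 (99.1 ± 2.45), Dtx4 (18.4 ± 1.40) and Notch3 (5.14 ± 0.862). Only Hey1 and Hes1, which are neighbours in this order, overlapped in their libraries. In CAF_CM libraries Dtx3 (806 ± 46.5) and Jag1 (676 ± 15.9) remained the highest, Hes1 (220.2 ± 30.4) stood before Hey1 (190.0 ± 23.7), and the ranges of Notch1 (188 to 317) and Hes1 and those of Hes1 and Hey1 overlapped. The order depends on the transcript used: with the median transcript length of each gene, 2 of 9 members kept their place.

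The members differ widely in transcript length, from 1468 bases for Hes1 to 10500 bases for Notch2, and the CAF_CM libraries differed from control with length. Among the 559 tested genes with a longest transcript of 8 to 11 kb, the median log2 difference from the control mean was 0.042 in CAF_CM replicate 1, 0.29 in replicate 2 and 0.26 in replicate 3. Of the 3049 genes of at least 5 kb, 69.8% had their lowest CAF_CM value in replicate 1 and 51.4% their highest in replicate 2, against 35.3% and 35.0% of all genes tested. Among the members, replicate 1 was the lowest CAF_CM library for 5 (the 3 receptors and both ligands) and replicate 2 the highest for 6.

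**Figure D2:**
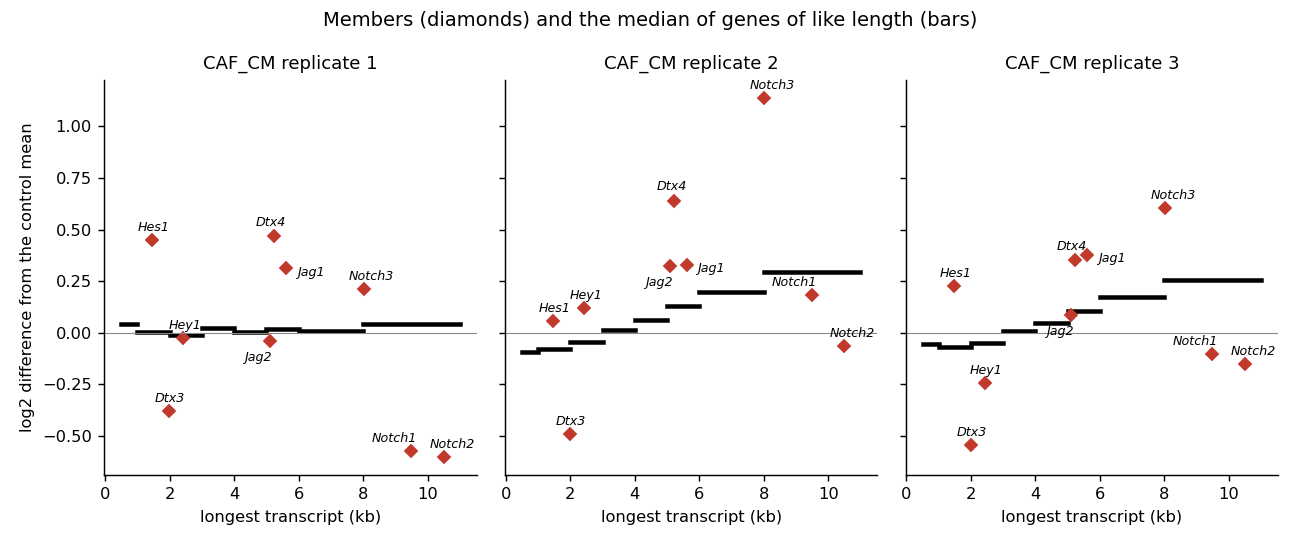
Log2 difference from the control mean (vertical axis) against the length of the longest transcript in kb (horizontal axis) in each CAF_CM library, with the 9 members as red diamonds and the median of all tested genes in each length class below 11 kb as black bars. The class from 11 kb upward (219 genes) is not drawn, and its medians were -0.080, 0.29 and 0.24 in replicates 1, 2 and 3. The bars climb with length in replicates 2 and 3, to 0.29 and 0.26 at 8 to 11 kb, and hardly in replicate 1, and Notch1 and Notch2 lie below the bar of their class in all 3 libraries.

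Set against genes of like length, Notch1 was lower in all 3 CAF_CM libraries, by -0.62, -0.11 and -0.36 log2 units relative to the median of its class in replicates 1, 2 and 3. Notch2 stood at -0.64, -0.36 and -0.41 on the same scale. Notch3 stood above the class median by 0.17, 0.85 and 0.35. When every library was first corrected for the length and GC content of transcripts, Notch1 (log2 difference -0.31, limma adjusted p = 0.0175) and Notch2 (-0.42, adjusted p = 0.000400) were called lower and Hes1 was called higher (0.31, adjusted p = 0.0222). The call on Notch3 was lost in that fit (0.51, adjusted p = 0.0650), and the sign of Hey1 turned (0.033). The calls on Jag1 (0.23, adjusted p = 0.00117), Dtx3 (-0.39) and Dtx4 (0.42, adjusted p = 0.0161) held.

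**Figure D3:**
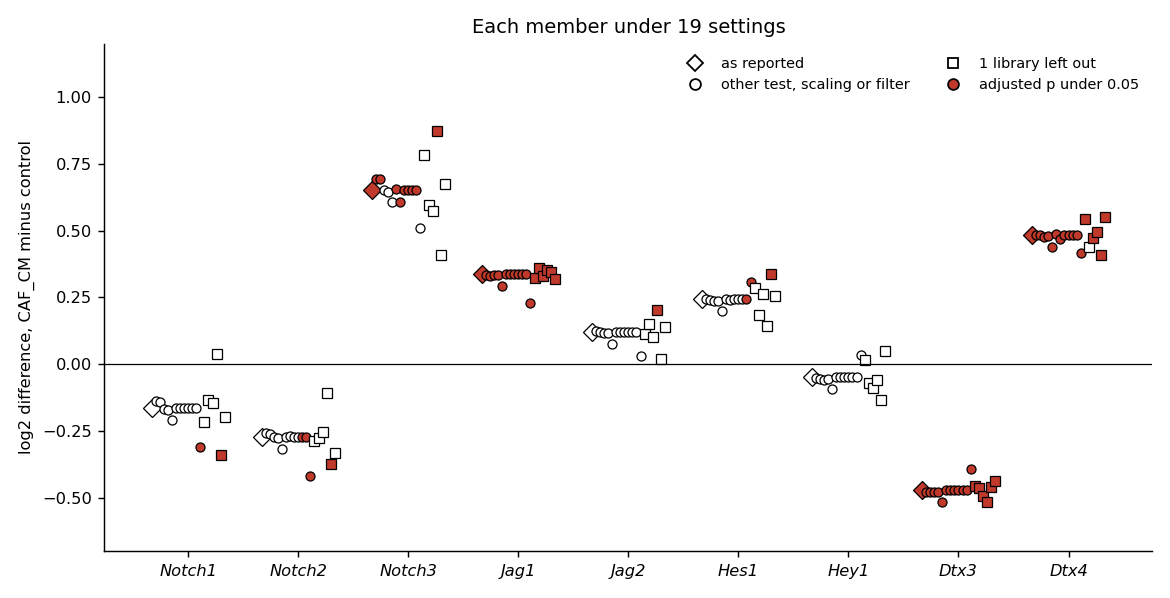
Log2 difference between CAF_CM and control (vertical axis) of each member in 19 settings, the reported one as a diamond, other tests, scalings and filters as circles and fits without 1 library as squares. Red fill marks an adjusted p under 0.05. Jag1 and Dtx3 are filled in all 19 settings, Dtx4 in all but the fit without control replicate 2, and Notch1 runs from -0.34 to 0.039.

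The rest of the pathway was read from a list of 80 genes, of which 76 passed the filter on low values. Of these 76, 17 were higher and 10 lower, or 35.5%, beside 34.4% of all genes tested. The median log2 difference was 0.091. Without control replicate 1 the number higher was 9, without CAF_CM replicate 1 it was 26, without control replicate 2 the number lower was 5, and after the length and GC correction it was 16. The genes are taken by role below, and differences between roles were not tested.

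**Figure D4:**
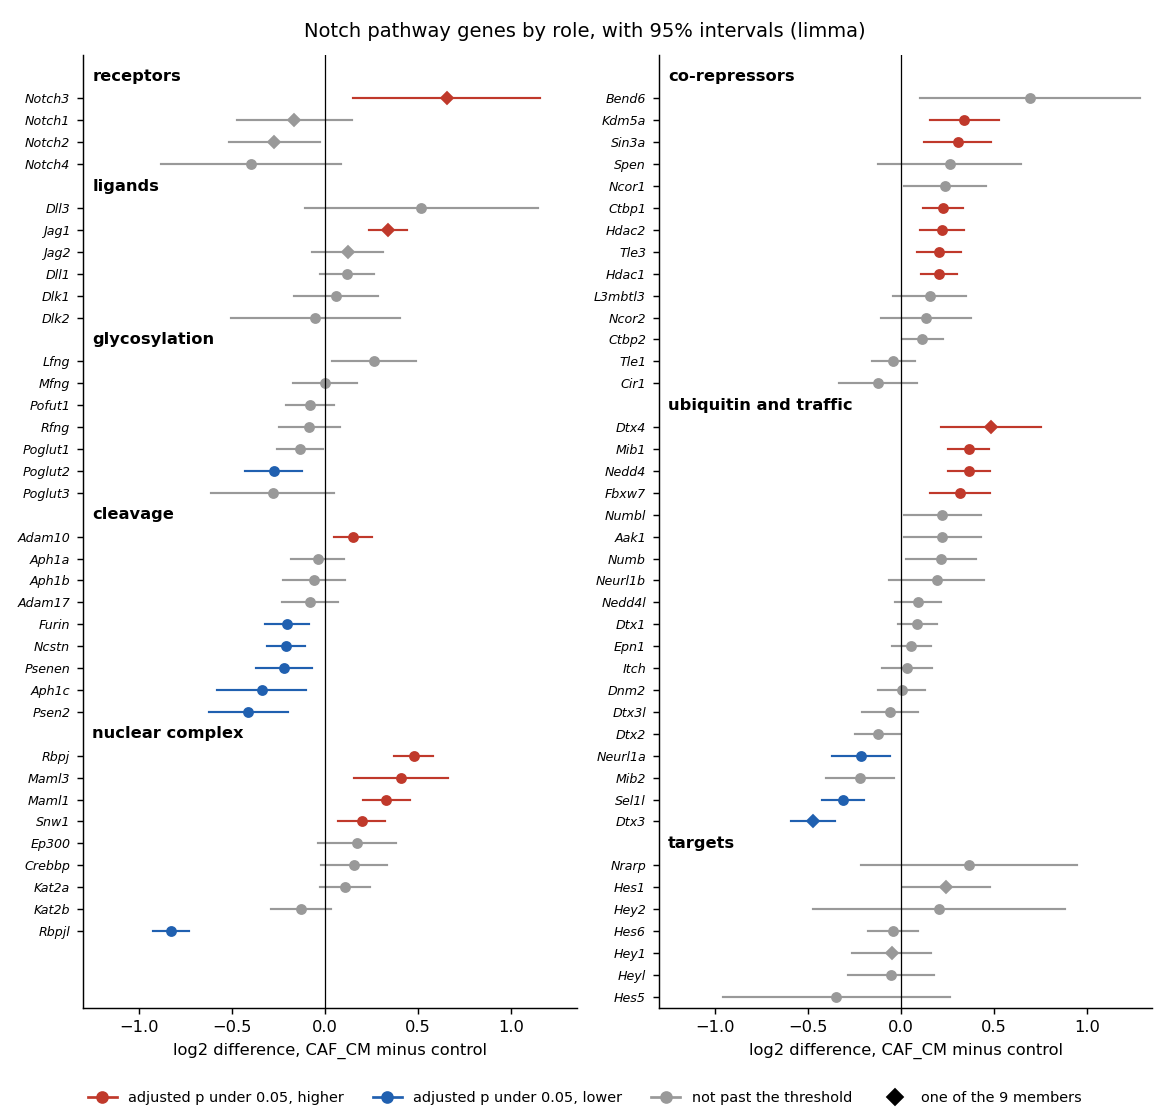
Log2 difference between CAF_CM and control (horizontal axis, zero marked) with 95% intervals for 75 of the 76 pathway genes tested, grouped by role, with the 9 members as diamonds. Genes past the threshold are red where higher and blue where lower, and the gamma-secretase genes shown, listed under cleavage, all have negative differences in the setting shown, although that of Aph1a turned positive after the length and GC correction (0.035) and without CAF_CM replicate 3 (0.027).

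Of the 4 ligand genes tested beyond Jag1 and Jag2, limma called 0, beside 34.4% of all genes tested. Dll1, a Delta-like ligand of pancreatic progenitors, had a log2 difference of 0.12 (501 ± 20.4 and 544 ± 19.4 normalized counts, adjusted p = 0.185), and Dll3 was at 10.7 ± 2.06 and 15.7 ± 2.73 (adjusted p = 0.185). At an unadjusted p under 0.05 limma found 0 of these 4 genes, and edgeR and DESeq2 called 0. Dll4, the ligand of endothelial tip cells, stayed at or below 7.83 normalized counts and was not tested. Of the genes whose products add sugars to Notch receptors, 1 of 7 was called, Poglut2, which fell (-0.28, adjusted p = 0.0110). The fringe genes, which tune the choice between ligands, did not pass the test, at 0.26 for Lfng (adjusted p = 0.0699), -0.085 for Rfng (adjusted p = 0.412) and 453 ± 43.3 against 452 ± 6.30 normalized counts for Mfng in CAF_CM and control libraries. Poglut2 lost its call without control replicate 2 (adjusted p = 0.0624), and Lfng was called without CAF_CM replicate 3 (0.36, adjusted p = 0.0264).

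Genes of receptor cleavage were mostly lower, 5 of 10 by call and 1 higher, with a median log2 difference of -0.17. Over all genes tested, 16.1% were called lower and 18.3% higher. Of 7 gamma-secretase genes, 4 were called lower: Psen2, a catalytic presenilin (from 260.0 ± 8.36 to 196 ± 20.1 normalized counts, -0.41, adjusted p = 0.00727), Ncstn, the nicastrin gene (-0.21, adjusted p = 0.00495), Psenen (-0.22, adjusted p = 0.0266) and Aph1c (-0.34, adjusted p = 0.0325). Aph1b and Aph1c are near-identical copies, so their separate values are uncertain. Aph1a and Aph1b had -0.039 and -0.060. Furin, whose protease cuts Notch on its way to the surface, fell (-0.21, adjusted p = 0.0119), and Adam10 rose (0.15, adjusted p = 0.0255). The calls on Psen2 and Ncstn held in all 18 alternatives. Psenen lost its call without control replicate 1, 2 or 3 or CAF_CM replicate 3 (adjusted p = 0.0765, 0.102, 0.0767 and 0.103), Aph1c without control replicate 2 or 3 or CAF_CM replicate 1 or 3 (0.123, 0.117, 0.0688 and 0.0840), Furin without control replicate 1 or 2 (0.0592 and 0.0612), and Adam10 without control replicate 1, 2 or 3 (0.116, 0.112 and 0.0617), with library totals (0.0845) and after the length and GC correction (0.169).

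In the nuclear complex, Rbpj, Maml1, Maml3 and Snw1 rose and the acinar relative Rbpjl fell. Rbpj had 2028, 1991 and 2098 normalized counts in control libraries and 2767, 2850 and 2890 in CAF_CM libraries, and the groups did not overlap (log2 difference 0.48, SE 0.047, limma adjusted p = 5.77e-05). Rbpjl had 5335, 5357 and 5255 in control and 2907, 3021 and 3060.1 in CAF_CM libraries (-0.83, SE 0.045, limma adjusted p = 1.63e-06), and its groups did not overlap either. Within a library, the count of Rbpjl over that of Rbpj was 2.63, 2.69 and 2.51 in control and 1.05, 1.06 and 1.06 in CAF_CM libraries. The co-activator genes Maml1 (0.33, limma adjusted p = 0.00136) and Maml3 (0.41, adjusted p = 0.0175) and the scaffold gene Snw1 (0.20, adjusted p = 0.0209) also rose. This made 4 higher and 1 lower in 9 tested, beside 18.3% higher and 16.1% lower over all genes tested. The 4 that rose have long transcripts, of 5485 bases for Rbpj, 5528 for Maml1, 5083 for Snw1 and 8288 for Maml3. Among all tested genes of 5000 to 6000 bases 32.0% were called higher, and among those of 8000 to 11000 bases 41.9%. The acetyltransferase genes Ep300 (0.17), Crebbp (0.15), Kat2a (0.11) and Kat2b (-0.13) did not pass the test, and Maml2 had no row under that symbol. Rbpj, Rbpjl and Maml1 were called in all 18 alternatives. Maml3 lost its call without control replicate 1 or 2 or CAF_CM replicate 3 (adjusted p = 0.0733, 0.0521 and 0.0742), and Snw1 without control replicate 1 or 3 or CAF_CM replicate 3 (0.0974, 0.0823 and 0.0774), with library totals (0.0644) and after the length and GC correction (0.118), in which the log2 difference of Maml3 was 0.27.

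RBPJ and RBPJL recognise the core letters TGGGAA, and Hes and Hey repressors bind sites such as CACGNG, so both were searched on either strand in the 250 bases before the start of each gene in RefSeq (GRCm38.p6). A promoter was found for 5 of 9 members: Notch1, Notch2, Notch3, Jag1 and Jag2. TGGGAA was in 0 of these 5 and in 21.6% of all 32851 promoters of that length, with 20.5% among those of genes tested here. CACGNG was in 3 of 5 (Notch2, Notch3 and Jag1), in 23.5% of all promoters and in 34.2% of those of genes tested. The promoters of Jag1, the member with the tightest rise, and of Rbpj and Rbpjl, the pair that moved in opposite directions, are shown because they hold these letters, with CACGNG in capitals in the first and TGGGAA in capitals in the others, each also as its reverse complement, at chr2:137116521-137116770 (minus strand), chr5:53590096-53590345 (plus strand) and chr2:164402944-164403193 (plus strand).
Jag1: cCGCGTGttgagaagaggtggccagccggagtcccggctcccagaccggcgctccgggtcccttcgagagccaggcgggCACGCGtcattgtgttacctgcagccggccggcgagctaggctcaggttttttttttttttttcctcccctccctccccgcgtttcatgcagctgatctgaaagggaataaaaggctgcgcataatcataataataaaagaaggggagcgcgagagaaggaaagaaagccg
Rbpj: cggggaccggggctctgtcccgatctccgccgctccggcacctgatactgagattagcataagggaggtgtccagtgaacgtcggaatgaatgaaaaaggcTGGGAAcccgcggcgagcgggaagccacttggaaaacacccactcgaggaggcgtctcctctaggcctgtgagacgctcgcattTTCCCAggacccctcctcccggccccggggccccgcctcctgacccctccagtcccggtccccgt
Rbpjl: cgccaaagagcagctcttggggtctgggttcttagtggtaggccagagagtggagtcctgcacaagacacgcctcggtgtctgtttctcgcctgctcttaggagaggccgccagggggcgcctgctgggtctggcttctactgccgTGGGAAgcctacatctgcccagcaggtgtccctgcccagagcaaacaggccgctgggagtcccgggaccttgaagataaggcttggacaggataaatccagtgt
A match of letters describes the sequence and does not show that a factor was bound.

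Co-repressor genes, whose products hold RBPJ targets silent in the absence of Notch, had 6 of 14 members higher and 0 lower by limma, with a median log2 difference of 0.21, beside 18.3% of all genes tested called higher. Some of these genes are long, with transcripts of 10944 bases for Kdm5a and 8638 for Tle3, and 41.9% of all tested genes of 8 to 11 kb were called higher. At an unadjusted p under 0.05, 9 of the 14 were higher and 0 lower in limma, a cut at which the share of all genes was not counted. By adjusted p, edgeR called 6 higher and DESeq2 7, and both called 0 lower. The genes that rose were the demethylase gene Kdm5a (0.34, adjusted p = 0.00952), the scaffold gene Sin3a (0.31, adjusted p = 0.0139), Ctbp1 (0.23, adjusted p = 0.00502), the deacetylase genes Hdac2 (0.22, adjusted p = 0.00917) and Hdac1 (0.20, adjusted p = 0.00493), and the Groucho-type gene Tle3 (0.21, adjusted p = 0.0124). These proteins serve many factors besides RBPJ. Hdac1 and Ctbp1 were called in all 18 alternatives. Without control replicate 1, Kdm5a, Sin3a, Hdac2 and Tle3 lost their calls (adjusted p = 0.0553, 0.0611, 0.0604 and 0.0621), Tle3 also without control replicate 3 (0.0642) and after the length and GC correction (0.304), in which the log2 difference of Kdm5a was 0.14, and Sin3a without CAF_CM replicate 3 (0.0519).

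Among 19 genes of ubiquitin transfer and receptor traffic, 4 rose and 3 fell, Dtx3 and Dtx4 included. Together that is 36.8%, close to the 34.4% of all genes tested. Mib1, the ligase that acts on Notch ligands in the sending cell, rose 1.29-fold from 2024 ± 78.8 to 2606 ± 73.9 normalized counts (0.36, limma adjusted p = 0.000335), while its relative Mib2 did not pass the test (-0.22, adjusted p = 0.0624, and 0.0422 without CAF_CM replicate 2). Nedd4 (0.36, adjusted p = 0.000406) and Fbxw7, whose product marks the Notch intracellular part for destruction (0.32, adjusted p = 0.00695), rose. Sel1l (-0.31, adjusted p = 0.00107) and Neurl1a, a ligase for Notch ligands (-0.21, adjusted p = 0.0365), fell. Numb, which encodes an inhibitor of Notch, had a log2 difference of 0.21 (adjusted p = 0.0747, and 0.0226 without CAF_CM replicate 1). Mib1, Nedd4, Fbxw7 and Sel1l were called in all 18 alternatives, although after the length and GC correction the log2 difference was 0.16 for Mib1 (adjusted p = 0.0419) and 0.24 for Nedd4. Neurl1a lost its call in DESeq2 (adjusted p = 0.0598), without control replicate 1, 2 or 3 (0.143, 0.115 and 0.0636) and without CAF_CM replicate 1 or 3 (0.0568 and 0.112).

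Of 7 tested genes listed here as targets, Hes1 and Hey1 included, 0 were called by limma, beside 34.4% of all genes tested. At an unadjusted p under 0.05, 1 was higher (Hes1) and 0 were lower, and edgeR and DESeq2 called 0 of the 7. Whether each listed gene, Hes6 among them, responds to Notch in these cells was not tested. Hes6 had 838 ± 33.6 and 815 ± 39.1 normalized counts in control and CAF_CM libraries, and Heyl 267 ± 32.0 and 257 ± 23.5. Nrarp, a feedback inhibitor that is a direct Notch target, was low, with 17.4 ± 2.99 in control and 23.1 ± 6.74 in CAF_CM libraries and 30.9 in CAF_CM replicate 1. Hes5 (17.4 ± 5.00 and 13.2 ± 1.58) and Hey2 (11.4 ± 3.49 and 12.8 ± 0.916) were low too, and at such levels a small difference was not detectable. Of the proneural genes that Hes1 is known to repress, both genes tested, Neurod1 and Insm1, rose (log2 differences of 2.05 and 0.47).

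By Pearson correlation of log2 values over the 6 libraries, among 11411 genes with a mean of at least 50, the gene most like Jag1 was Stk40 (0.999), those most like Dtx3 were Prss8 and Ddost (both 0.998), those most like Dtx4 were Mmel1 (0.998) and Asb7 (0.997), and those most like Notch3 were Shroom3 (0.989) and Chml (0.985). Because the libraries form 2 groups, many genes come close: 875 genes had a correlation above 0.95 with Jag1, 630 with Dtx3, 163 with Dtx4 and 44 with Notch3.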

How the data were processed

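RNA of 3 control and 3 CAF_CM libraries was sequenced. The deposited table holds a signal per gene, which the authors made by dividing read counts by 1 factor per library (whole reads were recovered for 100% of values, within 0.001). FastQC, DESeq2 and hg19, a human build, appear in the submitters' processing notes, while the table carries mouse genes. Aligner, counter and mouse build are not given in the sources used here. Of 20764 rows, 168 without a symbol (0.153 to 0.261% of reads) were left out. Values of at least 10 in 3 or more libraries were required, and limma 3.58.1 (R 4.3.3, trended variances) was fitted to log2(value + 1) of 16169 genes with Benjamini-Hochberg adjustment and a threshold of 0.05. Alternatives included edgeR 4.0.16 and DESeq2 1.42.0 on the recovered reads, limma-voom, other scalings, pseudocounts and filters, group weights, a replicate block, a correction for transcript length and GC content (GENCODE M21, 95.0% of genes) and leaving out each library. The limma and edgeR fits were also run on simulated data, with results not reported here. The members are 9 genes taken by symbol; all are named, with the pathway genes that limma called and the other receptors, ligands, targets and Deltex, fringe and gamma-secretase genes. Likeness is Pearson's correlation of log2 values, and up to 2 of the highest genes are named for each called member. Results of some genes that these rules name are not reported here. Members, lists and rules were chosen with earlier results of these data known.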

Additional observations from a re-analysis of the deposited data

How the results depend on the processing

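Among the members, Jag1 and Dtx3 kept direction and call in all 18 alternatives. After the length and GC correction Notch1 (-0.31), Notch2 (-0.42) and Hes1 (0.31) were called, Notch3 (0.51) was not, and the signs of Hey1 (0.033), Hes6 (0.0070), Mfng (0.078) and Aph1a (0.035) turned, with 3 members and 16 pathway genes lower. Notch3 also missed the threshold with limma-voom (0.65), TMM scaling (0.65) and library totals (0.61). Group weights called Notch2 (-0.27), which made 2 members lower. Deviations of same-numbered libraries correlated weakly, at 0.070, 0.029 and 0.030, against -0.046 to 0.017 for the other pairs. The labels state no pairing. With the replicate block Notch2 (-0.27) and Hes1 (0.24) were called, 2 members being lower. Leaving out 1 library gave log2 differences from -0.34 to 0.039 for Notch1, -0.38 to -0.11 for Notch2, 0.41 to 0.87 for Notch3, 0.021 to 0.20 for Jag2, 0.14 to 0.34 for Hes1, -0.13 to 0.047 for Hey1, 0.41 to 0.55 for Dtx4, -0.060 to 0.34 for Hey2, -0.13 to 0.043 for Heyl, -0.073 to 0.063 for Mfng and -0.11 to 0.027 for Aph1a. It gave 1868 to 3509 genes higher and 1659 to 2943 lower, 1 to 4 members higher and 1 to 3 lower, and 9 to 26 pathway genes higher and 5 to 15 lower. With the median transcript length, 2 members kept their place in the order of levels. Of 23 other pathway genes called, 11 kept the call in all alternatives run. The cause of these changes was not tested. Notch3, Notch4, Dll3, Hes5, Hey2 and Nrarp rest on few reads, which limits what could be detected.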
